A study of Homo sapiens with 10 samples.

Results

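The transcripts of the phosphoinositide 3-kinases (PI3K) were described through 10 genes taken by their symbols, out of 58302 genes in the deposited table. They are the class IA catalytic subunits PIK3CA, PIK3CB and PIK3CD, the class IA regulatory subunits PIK3R1, PIK3R2 and PIK3R3, the inhibitory partner PIK3IP1, the class II enzymes PIK3C2A and PIK3C2B, and the class III enzyme PIK3C3. All 10 passed the filter on low values (a mean of 1 CPM or more in any group, where CPM is the reads of a gene scaled to a common library size), as did 17837 genes in all. The lowest group mean of any of the 10 was 2.95 CPM.

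The libraries came from KYSE-410, a cell line of human esophageal squamous cell carcinoma, and all 4 groups are labelled as this 1 line. They are cells given K149 at 2 µM (3 libraries) with a DMSO control of their own (3 libraries), and cells given AS1949490 at 20 µM (2 libraries) with another DMSO control (2 libraries). The compounds inhibit SHIP2, the lipid phosphatase encoded by INPPL1. Cells were treated for 48 h, and the DMSO controls held 0.1% of the solvent.

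Class I PI3K phosphorylates a membrane lipid to PIP3, the messenger that recruits AKT. Its catalytic subunit is held by a regulatory subunit, which stabilises it and docks it to activated receptors. SHIP2 acts on the same messenger, turning PIP3 into another signalling lipid. Class II enzymes make lipids of endocytic membranes, and the class III enzyme makes PI3P for endosomes and autophagy. AKT keeps FOXO factors out of the nucleus, and so the letters of the FOXO core motif were looked up in the promoters.

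RefSeq promoter windows (GRCh38.p14, 250 bases before to 50 after a start) were at hand for all 10 genes, 22 windows in all. The letters GTAAACA, read on either strand, were in 1202 of 35116 windows of the reference (3.42%). They were in 2 of the 22 windows of the 10 genes, those of PIK3CA and PIK3IP1. They are shown because PIK3IP1 had the largest fold of the 10 genes with K149. Counted from the start, the match lies at -149 to -143 in PIK3CA and at 17 to 23 in PIK3IP1. The letters CACGTG (7.26% of windows) and TTTCGCG (1.32%) were in none of the windows of the 10 genes. The sequences run 5′ to 3′ along the gene, from 250 bases before the start to 30 after it, and the capitals mark the reverse complement of the motif. A match describes these letters only.
PIK3CA, chr3:179148107-179148386, plus strand: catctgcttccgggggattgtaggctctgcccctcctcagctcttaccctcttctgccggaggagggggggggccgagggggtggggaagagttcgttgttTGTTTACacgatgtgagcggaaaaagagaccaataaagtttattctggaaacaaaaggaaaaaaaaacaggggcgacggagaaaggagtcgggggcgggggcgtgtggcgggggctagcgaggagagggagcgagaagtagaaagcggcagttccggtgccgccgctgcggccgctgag
PIK3IP1, chr22:31292459-31292738, minus strand: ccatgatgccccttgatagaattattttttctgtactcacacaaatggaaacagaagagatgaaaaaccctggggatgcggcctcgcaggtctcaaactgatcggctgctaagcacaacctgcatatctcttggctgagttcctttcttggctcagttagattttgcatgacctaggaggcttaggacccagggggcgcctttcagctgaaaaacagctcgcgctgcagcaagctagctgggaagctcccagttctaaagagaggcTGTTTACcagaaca

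The libraries held an inferred 18.4 to 26.3 M reads. The second K149 replicate stood apart from the other K149 replicates, with a chi-square per degree of freedom of 7.45 and 8.69. The 2 DMSO libraries of the AS1949490 arm differed as much from each other (9.27), and a single pair does not show which of them departs. The other pairs within groups had 1.47 to 3.66. MALAT1, a nuclear RNA, ranged from 65.5 to 704 CPM and was highest in K149 replicate 1. Mitochondrial transcripts made up 2.42 to 2.60% of the CPM with K149, against 2.29 to 2.63% in its DMSO, and 1.94 to 2.06% with AS1949490, against 2.32 to 2.40% in its DMSO. Of the 7 squamous markers 6 had a mean of at least 1 CPM, with TP63 at 66.1 to 126 CPM, while KRT14 did not exceed 1.15 CPM. The 7 summed to 624 to 642 CPM with K149, against 578 to 602 CPM in its DMSO, and to 796 to 811 CPM with AS1949490, against 562 to 565 CPM in its DMSO. The single markers differed in direction: with K149, PERP had 451.6 to 465.3 CPM, against 293.6 to 310.9 CPM in DMSO, and SFN had 66.5 to 76.5 CPM, against 153.7 to 161.6 CPM in DMSO. KRT5 had 0.799 to 1.95 CPM with K149, against 8.8 to 9.05 CPM in DMSO. The 6 fibroblast markers summed to 257 to 275 CPM with K149, 230 to 243 CPM in its DMSO, 45.4 to 46.3 CPM with AS1949490 and 38.9 to 44.0 CPM in its DMSO. Of these, LUM had 217.0 to 261.8 CPM in the K149 arm and 13.04 to 25.7 CPM in the AS1949490 arm. COL1A1 went the other way, with 9.49 to 11.6 CPM in the K149 arm and 18.5 to 27.3 CPM in the AS1949490 arm. COL1A2 and COL3A1 stayed under 1 CPM. The part of these differences in the results was not tested.

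With K149, 9 of the 10 genes rose and none fell (limma adjusted p under 0.05), where 35.8% of all genes tested rose and 30.6% fell. All 10 were above their controls in every library, as were 37.7% of all genes tested. The median log2 fold of the 10, on the log2(CPM + 1) scale, was 0.41, against 0.04 for all genes tested. With AS1949490, 8 rose and none fell, where 32.1% of all genes rose and 19.5% fell. In that arm 8 were above the controls in both libraries and 1 below, against 44.5% and 30.5% of all genes, and the median of the 10 was 0.50, against 0.08 for all genes. The split of all genes called in the AS1949490 arm, 5727 higher and 3478 lower, was 4440 and 4786 after median-of-ratios scaling, under which 7 of the 10 genes rose.

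Of the class IA catalytic subunits, PIK3CA, PIK3CB and PIK3CD rose with K149, and PIK3CA and PIK3CB rose with AS1949490. In bulk RNA, fewer cells of a kind and less RNA per cell cannot be told apart. PIK3CA (ENSG00000121879, GRCh38 chromosome 3, 179148114 to 179240093, plus strand) encodes p110α, the catalytic subunit most often mutated in carcinomas. It had 58.4, 54.9 and 59.6 CPM in the K149 libraries, against 45.4, 46.3 and 44.4 CPM in their DMSO controls. Every K149 library lay above every control. The log2 fold was 0.34 ± 0.09 (SE, n = 3 each, limma adjusted p = 0.00492). With AS1949490 it had 49.0 and 45.1 CPM, against 26.3 and 36.4 CPM in DMSO, again without overlap. That log2 fold was 0.59 ± 0.11 (n = 2 each, limma adjusted p = 0.000718), and 0.36 without DMSO replicate 1 of the AS1949490 arm. PIK3CA shares 35.8% of its exon bases with KCNMB3 on the opposite strand (mean 10.9 CPM), and its reads cannot be told from those of KCNMB3 if strand was not used.

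PIK3CB (ENSG00000051382, chromosome 3, 138652699 to 138834938, minus strand) encodes p110β, which G protein-coupled receptors can also activate. It had 80.3, 80.5 and 86.3 CPM with K149, against 74.3, 73.7 and 72.0 CPM in DMSO. The groups did not overlap, but the log2 fold was the smallest of the 10, 0.17 ± 0.06 (limma adjusted p = 0.036), and 13 of 22 alternative settings lost the call. AS1949490 cells had 64.9 and 66.0 CPM, against 44.8 and 53.8 CPM in DMSO. Both AS1949490 libraries were above both controls, with a log2 fold of 0.41 ± 0.08 (limma adjusted p = 0.00083).

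PIK3CD (ENSG00000171608, chromosome 1, 9651732 to 9729114, plus strand) encodes p110δ, best known from leukocytes. It had 13.2, 14.99 and 11.99 CPM with K149, against 8.60, 7.70 and 8.25 CPM in DMSO. All K149 libraries were above the controls, and the log2 fold was 0.65 ± 0.09 (limma adjusted p = 3.25e-05). With AS1949490 it had 18.2 and 18.0 CPM, against 20.9 and 17.7 CPM in DMSO. These groups overlapped, and the log2 fold was -0.08 ± 0.11 (limma adjusted p = 0.563, 95% interval -0.33 to 0.16). Of the leukocyte markers, PTPRC did not exceed 0.2 CPM in any library. The summed level of the 6 leukocyte markers was 24.2 to 27.9 CPM with K149, against 23.3 to 24.9 CPM in its DMSO, and 25.0 to 27.0 CPM with AS1949490, against 18.0 to 19.8 CPM in its DMSO. CD68 and CORO1A were the only ones of the 6 with a mean of 1 CPM or more. CD68, a lysosomal protein that other cells also make, had 22.0 to 26.3 CPM with K149, against 19.5 to 20.04 CPM in its DMSO. With AS1949490 CD68 had 19.4 to 21.7 CPM, against 11.6 to 11.7 CPM in DMSO. CORO1A went the other way, with 1.45 to 2.00 CPM with K149, against 3.70 to 5.15 CPM in DMSO. With AS1949490 CORO1A had 5.15 to 5.55 CPM, against 6.25 to 7.94 CPM in DMSO. The part of these markers in the level of PIK3CD was not tested.

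**Figure D1:**
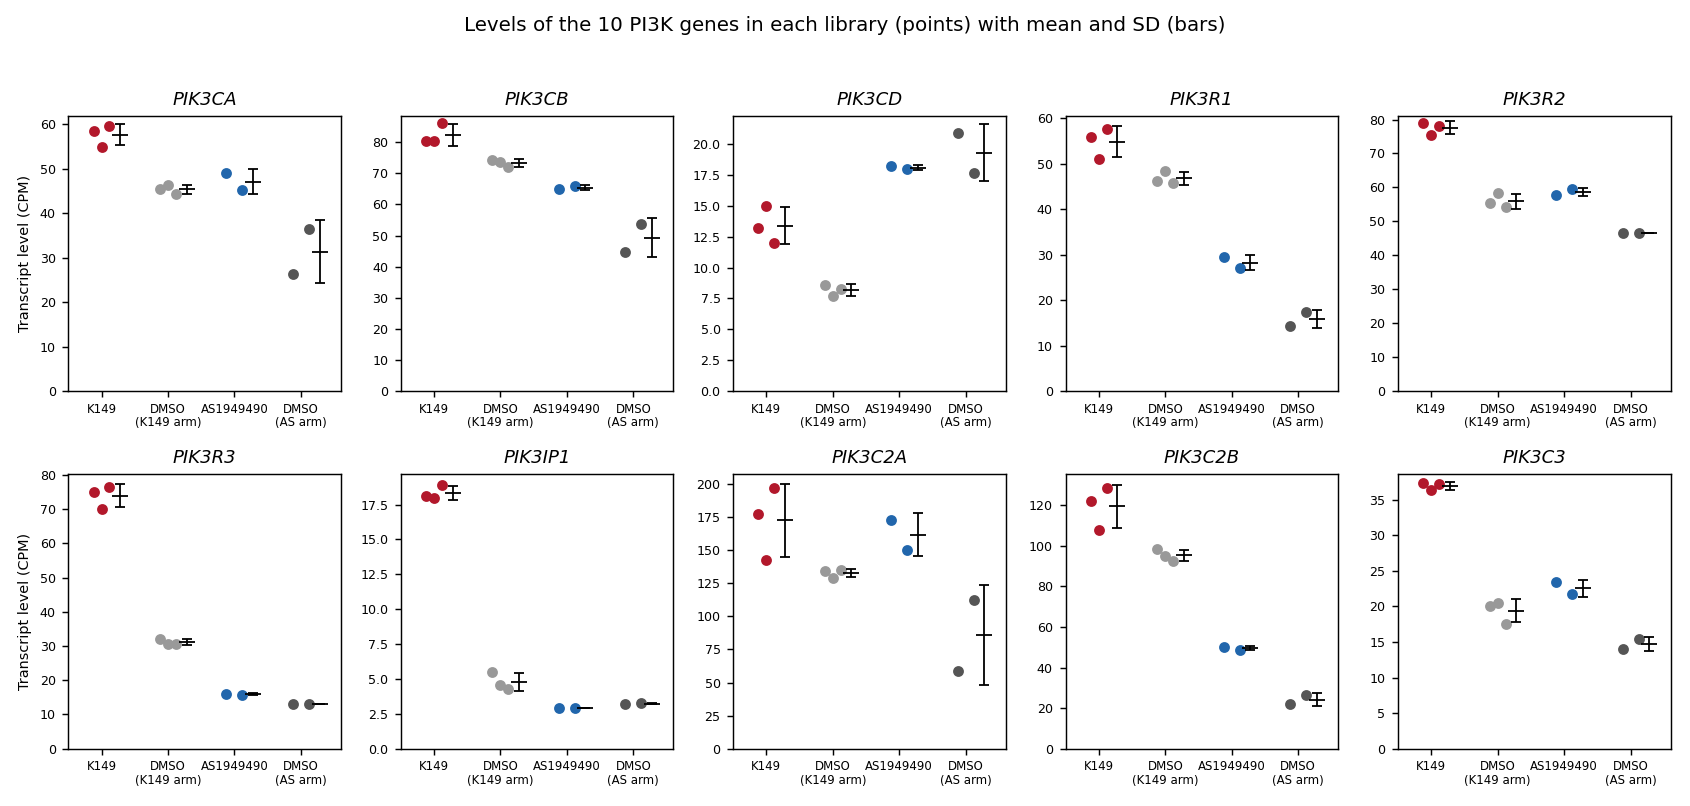
Level (CPM, linear axes from 0) of each of the 10 genes in every library (points), with the group mean and SD (bars), for K149, its DMSO, AS1949490 and its DMSO. The K149 points lie above their DMSO points for all 10 genes, while PIK3CD and PIK3IP1 did not pass the test with AS1949490.

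The regulatory subunits moved unequally: PIK3R3 had the largest fold of the 3 with K149 and PIK3R1 with AS1949490. PIK3R1 (ENSG00000145675, chromosome 5, 68215720 to 68301821, plus strand) encodes p85α and its shorter forms, which hold and restrain the catalytic subunits. It had 55.9, 51.0 and 57.6 CPM with K149, against 46.3, 48.4 and 45.7 CPM in DMSO. The groups did not overlap, and the log2 fold was 0.22 ± 0.08 (limma adjusted p = 0.0171), a call lost when any 1 of K149 replicates 1 and 3 or DMSO replicates 1 and 3 was left out (adjusted p = 0.0517 to 0.0693). AS1949490 cells had 29.4 and 27.0 CPM, against 14.4 and 17.3 CPM in DMSO. The treated libraries were far above the controls, with a log2 fold of 0.80 ± 0.09 (limma adjusted p = 1.43e-05).

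PIK3R3 (ENSG00000117461, chromosome 1, 46040140 to 46133036, minus strand) encodes p55γ, a regulatory subunit with a short amino-terminal part. It had 75.0, 70.1 and 76.5 CPM with K149, against 32.0, 30.5 and 30.6 CPM in DMSO. Every K149 library held more than every control by a wide margin, and the log2 fold was 1.22 ± 0.06 (limma adjusted p = 5.36e-10). With AS1949490 it had 16.1 and 15.7 CPM, against 13.04 CPM in both DMSO libraries. The groups did not overlap, and the log2 fold was 0.27 ± 0.07 (limma adjusted p = 0.00777), a call that 7 of 23 alternative settings lost, edgeR and DESeq2 among them (adjusted p = 0.063 and 0.188). PIK3R3 shares 17.4% of its exon bases with AL358075.4 on the same strand (mean 10.1 CPM).

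PIK3R2 (ENSG00000105647, chromosome 19, 18153118 to 18170540, plus strand) encodes p85β. Its values are uncertain, since 87.2% of its exon bases also belong to AC007192.1 on the same strand (mean 100.5 CPM) and how shared reads were counted is not given. As deposited it had 79.1, 75.5 and 78.2 CPM with K149, against 55.4, 58.4 and 54.1 CPM in DMSO. It had 57.9 and 59.6 CPM with AS1949490, against 46.5 CPM in both DMSO libraries. Neither pair of groups overlapped, and the log2 folds were 0.46 ± 0.05 (limma adjusted p = 2.7e-06) with K149 and 0.33 ± 0.06 (limma adjusted p = 0.0007) with AS1949490.

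PIK3IP1 (ENSG00000100100, chromosome 22, 31281593 to 31292534, minus strand) encodes a membrane protein that binds the catalytic subunits and lowers class I activity. It had 18.1, 18.0 and 18.9 CPM with K149, against 5.50, 4.55 and 4.25 CPM in DMSO. The K149 libraries were all several-fold above their controls, and the log2 fold was 1.75 ± 0.09 (limma adjusted p = 1.5e-09), the largest of the 10 genes. With AS1949490 it was listed at 2.95 CPM in both libraries, against 3.197 and 3.248 CPM in DMSO. Both AS1949490 libraries were below both controls, but the log2 fold of -0.10 ± 0.12 did not pass (limma adjusted p = 0.504, 95% interval -0.35 to 0.15). The gene rested on few reads in that arm, an inferred 77 in each AS1949490 library and 58 and 67 in the DMSO libraries.

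The class IA pools were compared as CPM per kilobase of merged exons, and the shares of single genes depend on the length used. PIK3R3 made up 30.9, 30.6 and 31.3% of the summed level of the 3 regulatory subunits with K149, against 20.7, 19.1 and 20.3% in DMSO. The share of PIK3R1 was 15.8 ± 0.449% with K149 and 20.8 ± 0.169% in DMSO (SD, n = 3 each), and that of PIK3R2 was 53.3 ± 0.796% and 59.2 ± 0.720%. All 3 genes rose, but the shares of PIK3R1 and PIK3R2 were smaller in every K149 library than in every control. With AS1949490 the share of PIK3R1 was 15.4 and 14.1%, against 9.998 and 11.8% in DMSO. PIK3R3 held 12.3 and 11.9% with AS1949490, against 13.2 and 12.9% in DMSO. The uncertain PIK3R2 enters each of these shares. Over the coding length PIK3R3 held the largest share with K149, 47.7 to 48.1%, against 32.0 to 34.2% in DMSO. On that scale PIK3R2 held 31.5 ± 0.676% with K149 and 37.5 ± 0.746% in DMSO (SD, n = 3 each).

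The sum of the regulatory subunits over that of the catalytic subunits was 1.78, 1.68 and 1.72 with K149, against 1.34, 1.39 and 1.34 in DMSO. The uncertain PIK3R2 enters the regulatory sum, and PIK3CA, which overlaps KCNMB3, the catalytic sum. All 3 K149 values lay above the controls, and the difference of 0.367 had p = 0.1 in an exact two-sided permutation test over the libraries, the smallest value that 3 against 3 can give. With AS1949490 the ratio was 1.09 and 1.11, against 1.13 and 1.01 in DMSO, and these overlapped (exact permutation p = 1.0, in a test that cannot reach 0.05 with 2 against 2). Among the catalytic subunits, PIK3CB held 56.2 ± 1.07% with K149 and 60.6 ± 0.0704% in DMSO (SD, n = 3 each). PIK3CD held 11.4 ± 1.49% with K149 and 8.39 ± 0.465% in DMSO. In the AS1949490 arm PIK3CD held 17.7 and 17.8% with the compound, against 28.1 and 20.7% in DMSO.

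**Figure D2:**
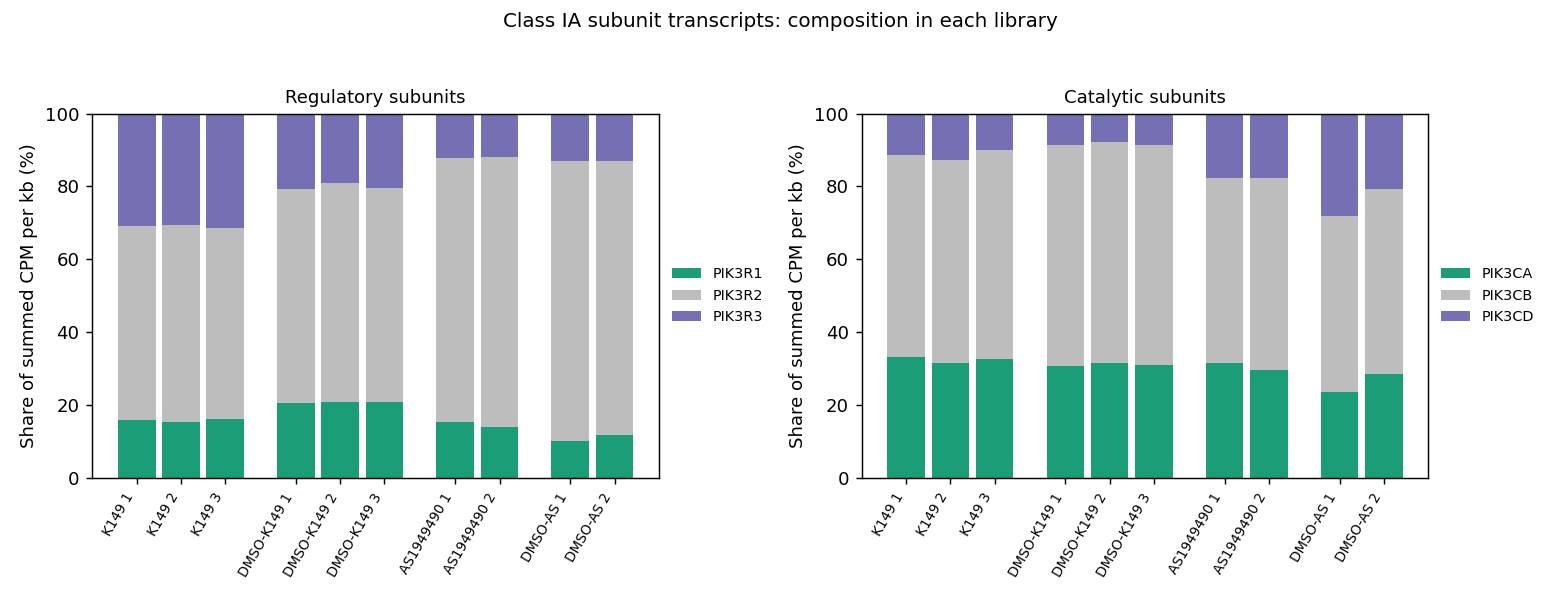
Share (%) of each regulatory (left) and catalytic (right) class IA subunit in the summed CPM per kilobase of its pool, 1 bar per library. The PIK3R3 segment is 30.6 to 31.3% in K149 libraries, against 19.1 to 20.7% in their DMSO libraries.

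Of the other classes, PIK3C2B and PIK3C3 rose with both compounds and PIK3C2A passed the test with AS1949490 and not with K149. PIK3C2A (ENSG00000011405, chromosome 11, 17077730 to 17207983, minus strand) encodes a clathrin-binding class II enzyme of endocytosis. It had 177.7, 142.6 and 197.4 CPM with K149, against 134.4, 129.1 and 134.8 CPM in DMSO. The K149 libraries were above the controls but scattered widely, and the log2 fold was 0.36 ± 0.17 (limma adjusted p = 0.0776, 95% interval -0.01 to 0.73). It passed in 5 of 22 alternative settings, among them the K149 arm fitted alone, with the same fold (limma adjusted p = 0.00252), and without either DMSO library of the other arm (adjusted p = 0.0023 and 0.00245). With AS1949490 it had 173.2 and 150.1 CPM, against 58.9 and 112.3 CPM in DMSO. The log2 fold was 0.98 ± 0.21 (limma adjusted p = 0.00174), but the 2 controls differed nearly as much as the groups, and it was 0.52 without DMSO replicate 1 of that arm and 1.44 without DMSO replicate 2. The difference between the effects was -0.62 (limma adjusted p = 0.0881).

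PIK3C2B (ENSG00000133056, chromosome 1, 204422628 to 204494724, minus strand) is the second class II gene. It had 122.4, 107.8 and 128.6 CPM with K149, against 98.3, 94.99 and 92.8 CPM in DMSO. The groups did not overlap, and the log2 fold was 0.32 ± 0.08 (limma adjusted p = 0.0021). AS1949490 cells had 50.4 and 48.8 CPM, against 21.9 and 26.6 CPM in DMSO. That log2 fold, 1.01 ± 0.09 (limma adjusted p = 2.75e-06), was the largest of the 10 genes with AS1949490.

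PIK3C3 (ENSG00000078142, chromosome 18, 41955206 to 42087830, plus strand) encodes VPS34, the lipid kinase of endosomes and autophagosomes. It had 37.4, 36.4 and 37.2 CPM with K149, against 20.1, 20.5 and 17.5 CPM in DMSO. Every K149 library was well above the controls, with a log2 fold of 0.90 ± 0.07 (limma adjusted p = 1.31e-07). AS1949490 cells had 23.4 and 21.7 CPM, against 14.04 and 15.4 CPM in DMSO. These groups did not overlap either, and the log2 fold was 0.59 ± 0.09 (limma adjusted p = 0.000152).

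Most of the 10 genes are long, and log2 folds rose with gene length. The merged exons of the 10 span 3805 to 15198 bases. PIK3C3 is longer than 97.6% of the genes tested and PIK3R1 than 92.3%, but PIK3R2 than 55.0% and PIK3IP1 than 46.7%. Over 5 classes of equal size, short genes first, the median log2 fold was -0.02, -0.01, 0.02, 0.07 and 0.15 with K149, and -0.03, -0.01, 0.07, 0.15 and 0.24 with AS1949490. Replicates of 1 group also differed along length. The median difference of K149 replicate 2 from replicate 3 was 0.05 in the class of shortest genes and -0.11 in that of the longest, and that of DMSO replicate 1 from replicate 2 of the AS1949490 arm was 0.04 and -0.11.

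Among the 9478 genes at least as long as the shortest of the 10, 41.7% rose with K149 and 42.3% with AS1949490. When each library was centred within bins of gene length, 7 of the 10 genes still passed as higher with K149 and 7 with AS1949490, where 34.2% and 24.3% of all genes did. The length-adjusted median of the 10 was 0.34 with K149 and 0.24 with AS1949490. PIK3IP1 (1.77), PIK3R3 (1.15), PIK3C3 (0.72), PIK3CD (0.60) and PIK3R2 (0.42) kept most of their log2 fold with K149, while PIK3CB (0.05, adjusted p = 0.44 by limma) and PIK3R1 (0.07, adjusted p = 0.267) did not pass. With AS1949490, PIK3C2B (0.78), PIK3C2A (0.74) and PIK3R1 (0.53) were the largest after adjustment, PIK3C3 had 0.27 and PIK3CB 0.20, and PIK3R3 (0.08, limma adjusted p = 0.388) did not pass.

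**Figure D3:**
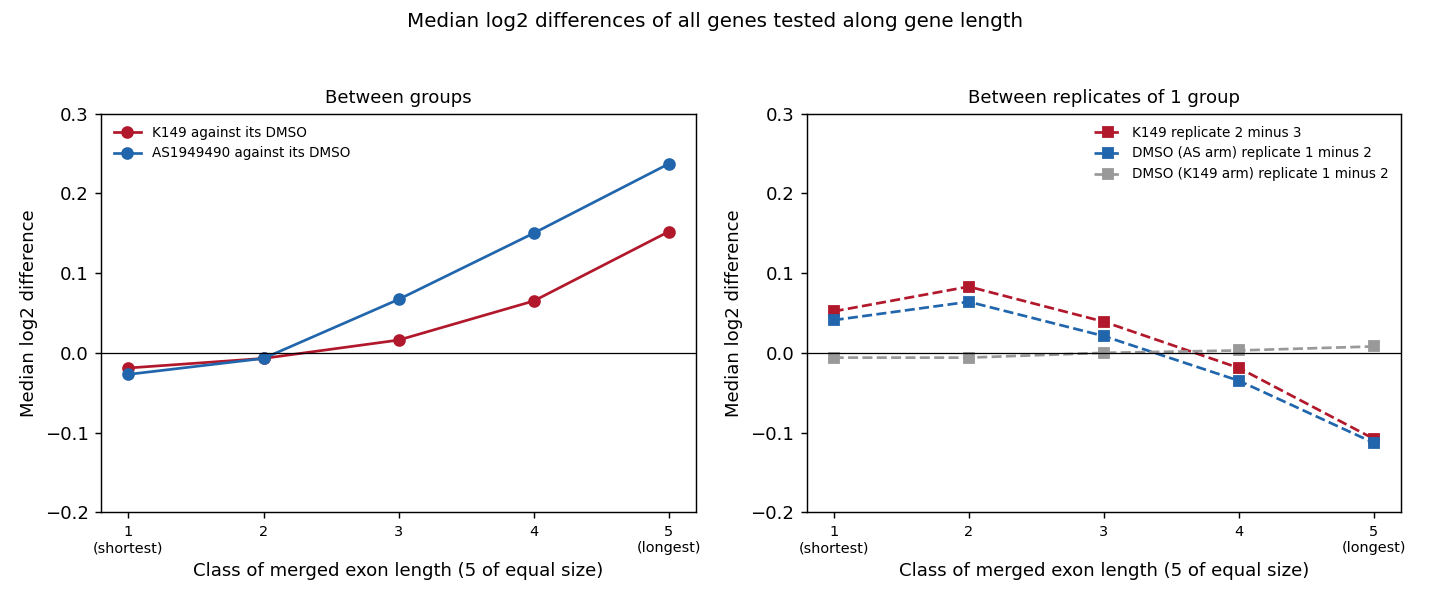
Median log2 difference of all genes tested in 5 classes of merged exon length, between treated cells and their DMSO (left) and between single replicates of 1 group (right). The AS1949490 line runs from -0.03 to 0.24, and 2 of the 3 replicate pairs shown also slope.

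**Figure D4:**
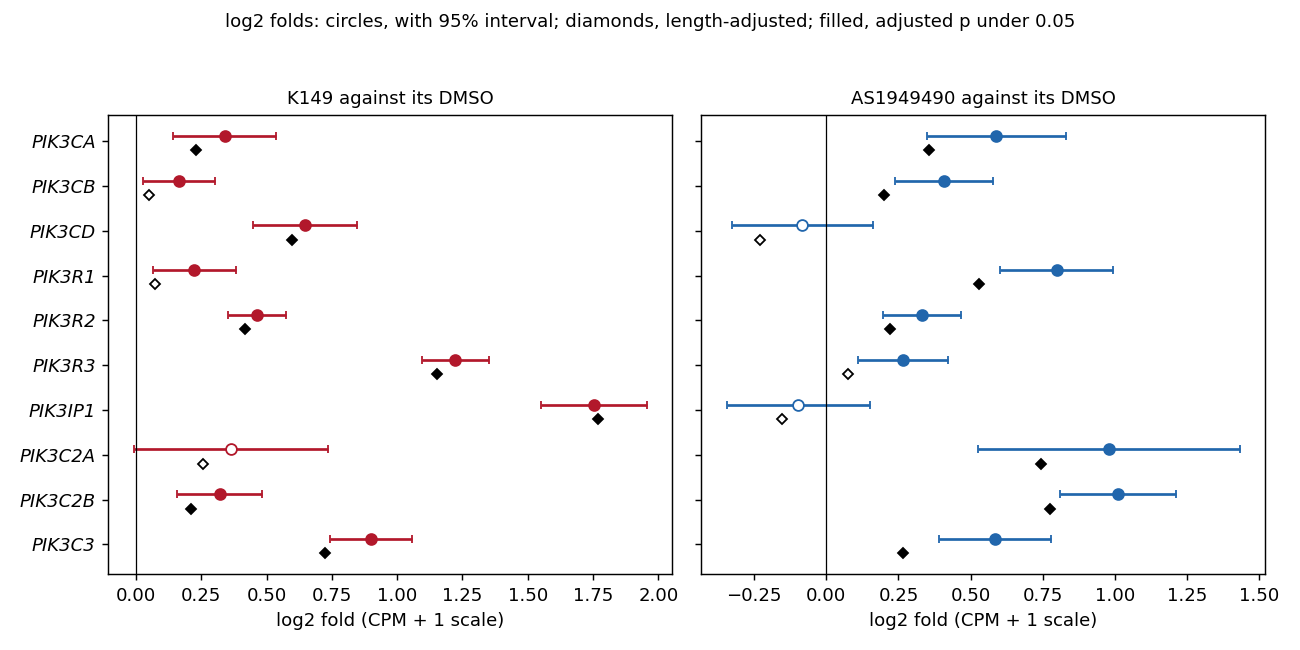
log2 fold on the log2(CPM + 1) scale of each gene with K149 (left) and AS1949490 (right), circles with 95% intervals, and the length-adjusted log2 fold (diamonds), filled where the limma adjusted p is under 0.05. PIK3IP1 stands at 1.75 with K149 and -0.10 with AS1949490, and every called gene but PIK3IP1 has its diamond to the left of its circle.

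The effects of K149 and AS1949490 differed for 6 of the 10 genes by limma's test of the difference, 4 in the higher and 2 in the lower direction for K149 minus AS1949490, where 15.1% and 25.3% of all genes tested did (2699 and 4508 genes, or 3359 and 3688 after median-of-ratios scaling, with 4 and 2 again among the 10). Without DMSO replicate 2 of the AS1949490 arm, 3 of the 10 differed in the higher and 5 in the lower direction. K149 had the larger effect on PIK3CD, PIK3C3, PIK3R3 and PIK3IP1, and AS1949490 on PIK3C2B and PIK3R1. For the others the difference did not pass, with 95% intervals of -0.56 to 0.06 for PIK3CA, -0.46 to -0.02 for PIK3CB (limma adjusted p = 0.0745), and -0.04 to 0.31 for PIK3R2. Without that DMSO replicate the differences passed for PIK3CA (-0.48, limma adjusted p = 0.00143), PIK3CB (-0.37, adjusted p = 0.00305) and PIK3C2A (-1.08, adjusted p = 0.000122), and that for PIK3C3 did not (0.25, adjusted p = 0.123). The doses were 2 and 20 µM and each arm had controls of its own, so the comparison is one of arms and not of compounds at a matched dose.

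The 2 sets of DMSO libraries differed in all 10 genes, 9 of them higher in the K149 arm and PIK3CD lower, where 37.1% of all genes tested were higher and 29.1% lower. In DMSO cells PIK3C2B had 98.3, 94.99 and 92.8 CPM in the K149 arm, against 21.9 and 26.6 CPM in the AS1949490 arm, a log2 difference of 1.94 ± 0.09 (limma adjusted p = 2.85e-10). For PIK3R1 the log2 difference was 1.51 ± 0.08, for PIK3R3 it was 1.19 ± 0.07 and for PIK3CD it was -1.14 ± 0.10. PIK3C2B and PIK3R1 both rose with AS1949490, and yet both AS1949490 libraries were below every DMSO library of the K149 arm in each gene. PIK3C2A differed by 0.70, and by 0.24 without DMSO replicate 1 of the AS1949490 arm (limma adjusted p = 0.118). Library names carry different prefixes in the 2 arms, and arm and library series cannot be told apart.

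Set per kilobase, PIK3C2A had the highest level of the 10 genes in K149 cells (18.8 ± 3.02 CPM per kilobase), in their DMSO cells (14.4 ± 0.345, SD, n = 3 each) and in AS1949490 cells (17.6 ± 1.77), and PIK3R2 in the DMSO cells of that arm (10.3 ± 0.00203, SD, n = 2 each), where PIK3C2A had 9.3 ± 4.11. In K149 cells PIK3C2A and PIK3R2 (17.1 ± 0.413) did not differ beyond their spread. The level of PIK3R2 is uncertain, since most of its exon bases also belong to AC007192.1. PIK3CB was the most abundant catalytic subunit in every group, at 10.5 ± 0.436 in K149 cells and 9.34 ± 0.153 in their DMSO cells (SD, n = 3 each). PIK3CD was the lowest of the 10 in K149 cells at 2.12 ± 0.238, next to PIK3C3 at 2.43 ± 0.0351. In the other groups PIK3IP1 was lowest, at 1.252 ± 0.171 in the DMSO cells of the K149 arm, where PIK3C3 and PIK3CD lay within its spread. The order depends on the length used: over the coding length, PIK3R3 stood first in K149 cells, at 53.4 CPM per kilobase.

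Of the remaining genes of the family, 4 were at or near 0, and PIK3C2G and PIK3R4 rose with AS1949490. PIK3CG, the catalytic subunit of class IB, its partners PIK3R5 and PIK3R6, and the adaptor PIK3AP1 did not exceed 0.1 CPM in any library and were not tested. A count of 0 allows a level of up to 0.163 CPM in the shallowest library. PIK3C2G, the class II gene known from liver, had 88.7, 73.0 and 90.9 CPM with K149, against 75.0, 76.0 and 77.8 CPM in DMSO, and did not pass (0.13 ± 0.09, limma adjusted p = 0.187). It had 49.1 and 47.4 CPM with AS1949490, against 26.1 and 32.3 CPM in DMSO. It rose there (0.71 ± 0.11, limma adjusted p = 0.000111), as did PIK3R4, the scaffold of VPS34 (0.33 ± 0.08, limma adjusted p = 0.00298).

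Of the 7 partners of VPS34, 5 rose with K149 and 6 with AS1949490 and none fell, where 35.8% and 32.1% of all genes tested rose. After the adjustment for length 5 and 4 of them were higher, where 34.2% and 24.3% of all genes were. PIK3R4, the scaffold among the 7, did not pass with K149 (-0.07 ± 0.06, limma adjusted p = 0.32). Its effects differed between the arms, by -0.40 for K149 minus AS1949490 (limma adjusted p = 0.00576). BECN1, the core partner in autophagy, had 111.9 ± 1.43 CPM with K149 and 74.7 ± 2.34 CPM in DMSO (SD, n = 3 each). It had 81.8 ± 1.95 CPM with AS1949490 and 58.9 ± 0.659 CPM in DMSO (SD, n = 2 each). BECN1 shares 17.1% of its exon bases with 2 other genes. NRBF2 led with BECN1 under K149 (log2 folds 0.60 and 0.58) and UVRAG with BECN1 under AS1949490 (0.47 each). Of 10 tested genes of PI3P turnover, 5 rose and 3 fell with K149, and 7 rose and none fell with AS1949490. Of all genes tested, 30.6% fell with K149 and 19.5% with AS1949490. After the adjustment for length the counts for PI3P turnover with AS1949490 were 5 higher and 2 lower, where 4312 of 17780 genes were higher and 4770 lower. PIKFYVE, the kinase that uses PI3P, had log2 folds of 0.77 ± 0.13 with K149 and 1.14 ± 0.16 with AS1949490, and its partner FIG4 of 0.73 ± 0.06 and 0.91 ± 0.07. The myotubularins MTMR4 (-0.38 ± 0.06) and MTMR2 (-0.18 ± 0.05) fell with K149.

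Upstream of class I, 8 of 15 receptors, adaptors and RAS genes rose and 2 fell with K149, and 9 rose and 3 fell with AS1949490. Among all genes tested 35.8% rose and 30.6% fell with K149, and 32.1% rose and 19.5% fell with AS1949490. After the adjustment for length, 6 of the 15 were higher and 3 lower with K149, and 5 and 3 with AS1949490. Of 17780 genes so adjusted, 6079 were higher and 5830 lower with K149, and 4312 and 4770 with AS1949490. The insulin receptor substrates IRS1 and IRS2 moved apart with K149 (log2 folds here and below are ± SE). IRS1 had 42.5 ± 6.81 CPM with K149 and 82.4 ± 1.36 CPM in DMSO (-0.95 ± 0.10), and IRS2 had 18.2 ± 1.13 CPM with K149 and 8.31 ± 1.17 CPM in DMSO (1.05 ± 0.10, SD and n = 3 each). With AS1949490, IRS2 fell (-0.56 ± 0.13) and the receptor IGF1R fell (-0.60 ± 0.09). The adaptor GAB2 rose with both (0.80 ± 0.15 with K149 and 0.80 ± 0.19 with AS1949490), GAB1 was the largest rise with AS1949490 (1.14 ± 0.13), and HRAS fell with K149 (-0.54 ± 0.07).

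Of 9 tested phosphatases acting on PIP3, its products or AKT, 6 rose with each compound, while 1 fell with K149 and 2 with AS1949490. With K149 35.8% of all genes tested rose and 30.6% fell, and with AS1949490 32.1% rose and 19.5% fell. After the adjustment for length, 4 were higher and 2 lower with K149, and 3 and 2 with AS1949490, where 34.2% and 24.3% of all genes were higher. Of 17780 genes so adjusted, 5830 were lower with K149 and 4770 with AS1949490. INPPL1, which encodes the target of the compounds, was among those that rose with both (0.61 ± 0.07 with K149 and 0.55 ± 0.08 with AS1949490). INPP5K rose with K149 (0.83 ± 0.07) and fell with AS1949490 (-0.23 ± 0.09), and INPP4A, which acts on the product of SHIP2, rose with AS1949490 (0.82 ± 0.07). PHLPP1, a phosphatase of AKT, fell with K149 (-0.65 ± 0.08) and INPP5E with AS1949490 (-0.23 ± 0.09). INPP5D, which encodes SHIP1, was below the filter.

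Downstream of class I, 7 of 16 genes rose and 2 fell with K149, and 5 rose and 4 fell with AS1949490. The counts with AS1949490 are near the 32.1% and 19.5% of all genes tested. With K149, 35.8% of all genes tested rose and 30.6% fell. After the adjustment for length, 6 were higher and 4 lower with K149, and 3 higher and 10 lower with AS1949490. Of 17780 genes so adjusted, 6079 were higher and 5830 lower with K149, and 4312 higher and 4770 lower with AS1949490. GSK3B, a kinase restrained by AKT, rose with both (0.50 ± 0.06 with K149 and 0.59 ± 0.07 with AS1949490), and MLST8, of the mTOR complexes, fell with both (-0.51 ± 0.07 and -0.26 ± 0.08). SGK1, a kinase related to AKT, had 10.1 ± 0.247 CPM with AS1949490 and 27.5 ± 2.3 CPM in DMSO (-1.36 ± 0.12, limma adjusted p = 2.06e-06, SD and n = 2 each). It had 1.58 ± 0.0759 CPM with K149 and 0.633 ± 0.153 CPM in DMSO, a rise at a low level (0.66 ± 0.10, n = 3 each). RICTOR rose with AS1949490 (0.89 ± 0.18) and AKT1 fell with K149 (-0.18 ± 0.05).

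Over the 10 libraries, the genes whose log2(CPM + 1) was most like that of PIK3R1 among 13032 genes with a mean of at least 5 CPM were PIK3C2B (Pearson r = 0.9987), TC2N (0.9964) and ARID5B (0.9961). For PIK3R3 they were AP003119.3 (0.9982), HBP1 (0.9979) and DEPTOR (0.9971), and for PIK3IP1 they were RASGRP1 (0.9913), MAPRE2 (0.991) and FZD7 (0.9907). These values describe 4 groups more than 10 separate points, since libraries of 1 group lie close together.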

How the data were processed

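RNA of 10 KYSE-410 libraries was sequenced. Per the labels' protocols, total RNA was purified on columns with DNase and made into libraries with the Ovation Solo RNA-Seq System. Reads were handled with STAR 2.5.3a and HTSeq (no version given) on hg38, per the submitters' processing notes. Which annotation and counting rules were used, and whether strand was, is not given in the sources used here. CPM, reads per gene scaled to a common library size, is the unit the authors deposited. Each library's values came in steps of about 0.05 CPM (100.0% of low values within 0.05 of a step), from which reads were inferred. Reads were inferred for all 10 libraries. In 2 of them the lowest step was empty, and the steps per read were 1.0005 and 1.0885. In the other 8 they were 0.7595 to 0.9625, so more than 1 read count can share a value. The inferred reads of those 8 are therefore estimates. Intervals on these reads would cover counting error only.

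Groups came from sample titles, and for DMSO replicate 3 of the K149 arm from its library name. The labels do not say that libraries of a group were separate cultures, so the p-values measure a spread between samples that may be technical. The members, gene lists and tests were chosen with earlier results of these data known. Genes whose mean reached 1 CPM in any group were tested with limma 3.58.1 in R 4.3.3 (eBayes with trend) on log2(CPM + 1), with 4 group means fitted to all 10 libraries. Adjustment was by Benjamini-Hochberg over 17837 genes, with calls at an adjusted p under 0.05. The log2(CPM + 1) scale understates changes of low genes. The replicate numbers were not taken to pair libraries. Positions and lengths came from GENCODE 29 on GRCh38 (58039 IDs matched). The script was tested on simulated data.

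Named genes were the 10 members, INPPL1, from each list the 2 called genes with the largest rise and fall for each inhibitor, and for PIK3R1, PIK3R3 and PIK3IP1 the 3 most correlated genes. Other lists held marker genes of cell types and of nuclear RNA. Alternatives were other pseudocounts, filters and scalings, edgeR 4.0.16 and DESeq2 1.42.0 on inferred reads, a replicate block, each arm alone and each library left out. Added after seeing the data were edgeR on 8 libraries, centring each library within 20 bins of gene length (17780 genes with a length) and a crossed block.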

Additional observations from a re-analysis of the deposited data

Results flagged for a closer look

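For 6 of the 10 genes the effect in the K149 arm differed from that in the AS1949490 arm by limma's test of the difference (limma adjusted p under 0.05), given here as K149 minus AS1949490 on the log2(CPM + 1) scale. PIK3IP1 had the largest difference, 1.85 (adjusted p = 4.34e-07): all 3 K149 libraries were above their controls, and both AS1949490 libraries were below theirs. The log2 fold of PIK3IP1 with AS1949490 itself, -0.10, did not pass (limma adjusted p = 0.504) and rested on few reads. PIK3R3 differed by 0.96 (adjusted p = 3.19e-06), with 3 of 3 K149 and 2 of 2 AS1949490 libraries above their controls. PIK3CD differed by 0.73 (adjusted p = 0.00142). The difference for PIK3C3 was 0.32 (adjusted p = 0.0449), a call that 9 of 21 alternative settings lost. PIK3C2B had a difference of -0.69 (adjusted p = 0.000494) and PIK3R1 one of -0.58 (adjusted p = 0.00164), both with the larger rise in the AS1949490 arm. After the adjustment for gene length the 6 differences were 1.92, 1.08, 0.83, 0.46, -0.56 and -0.46 in the order given. The DMSO libraries of the arms also differed in these 6 genes, but after the adjustment for gene length PIK3C3 did not pass (limma adjusted p = 0.0597).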

How the results depend on the processing

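With K149, 7 to 10 of the 10 genes passed as higher across the alternatives, and with AS1949490 it was 7 or 8, and none passed as lower. For single genes, 823 of 870 values kept their direction and their side of the threshold. The direction turned once: PIK3CD with AS1949490 had log2 folds of -0.199 to 0.032 when single libraries were left out, the highest without DMSO replicate 1 of that arm. The ratio of regulatory to catalytic subunits was 0.635 higher with K149 per coding length and 0.289 higher with no length, against 0.367 over merged exons, and leaving out single libraries gave 0.341 to 0.39. With AS1949490 the difference in ratio was 0.0258, and -0.0356 to 0.0871 when single libraries were left out. The cause was not tested. Replicate numbers were not taken to pair the libraries: same-numbered correlations were 0.101, 0.046 and -0.012 in the K149 arm. In the AS1949490 arm they were -0.242, and 0.242 crossed, which with 2 libraries a group is 1 value, and library names there carry replicate numbers unlike those of the titles. A replicate block gave 11479 genes called with K149, against 11837, and 8579 with AS1949490, against 9205, while a crossed block gave 9534. With the block PIK3CB with K149 had adjusted p = 0.0505. EdgeR on 8 libraries, without the 2 whose lowest step was empty, gave log2 folds with AS1949490 of 0.44 for PIK3C2A and 0.29 for PIK3CA. It left 1 DMSO library in that arm, without replicate 1, and that library was assumed to vary like the other groups. PIK3IP1 rested on the fewest reads, and 2 or 3 libraries a group limit every value.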
